A study of Mus musculus with 15 samples.

Results

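The comparison described here sets livers of adult male mice that had been overfed as suckling pups against control livers. Its members are 6 of the 15 arrays of the series: 3 pools labelled ON, for overfed during lactation (pools 7, 8 and 9, called ON F1 because these males are the first generation), and 3 control pools (pools 1, 2 and 3). They were chosen by their titles. The titles carry a number 3, read here as 3 livers per pool, and state that the control pools held livers of first and second generation offspring together, so the ON F1 pools had no control of their own generation alone. Strain, exact age, diet and the means of overfeeding are not given in the sources used here. A further group, IUGR F1 (pools 4, 5 and 6), came from adult males whose calories had been cut by 50% before birth, and is the other first-generation group. The study asked whether expression patterns of challenged males return in their sons. The labels do not state whether each pool drew on its own litters. The p-values below therefore reflect only how far pools spread within the groups of all 15 arrays, which may in part be technical.

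The liver takes up sugar and fat from the blood, stores them, and releases glucose and lipoproteins when other tissues need them. Overfeeding of suckling rodents, often achieved with small litters, is a widely used model of early weight gain, and gluconeogenesis, lipid storage, insulin signalling and inflammation are the liver functions usually examined in it. Many liver genes are also set by sex through the rhythm of growth hormone release, by time of day through the clock, and by inflammation through interleukin-6 and related signals.

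Levels are log2 values from RMA, a summary of the probes of a probe set after background correction and normalisation between arrays. A difference is ON F1 minus control on that log2 scale, with the standard error from limma, a linear model fitted to all 18193 genes. Array pairs within the ON F1 group correlated at 0.9877 to 0.9898 over probe sets, below the control pairs at 0.993 to 0.9941. Pairs of 1 ON F1 and 1 control array spanned 0.9866 to 0.9926, so the ON F1 pools were no more alike than pools of different groups. Pool 9 correlated with the control pools at 0.9912 to 0.9926, above its values with pools 7 and 8 (0.9898 and 0.9877). No 2 arrays held the same values. The median SD of a gene over 3 pools was 0.1277 in ON F1 and 0.1127 in control pools. It was lower in the other groups, at 0.1037 in IUGR F1 and 0.102 and 0.1054 in sons of IUGR and ON males. The error in the model is shared by all 15 arrays, so these tighter groups enter it. On the log2 scale the actin control probe sets at the 3' end exceeded those at the 5' end, a measure of RNA integrity, by 1.92 to 2.22 in ON F1 and 1.76 to 1.94 in control pools, and its part in the results was examined only as a covariate. The label of liver was borne by 13 measured hepatocyte markers, whose means over all arrays ran from 11.52 to 14.43. The albumin gene Alb, for example, stood at 14.42, 14.44 and 14.41 in control pools. The median of these markers differed from the control mean by -0.031, -0.029 and -0.014 in the ON F1 pools.

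In the main fit a small set of genes was called higher in ON F1 than in control pools, and none was called lower. At an adjusted p under 0.05 in limma, 4 of 18193 genes were higher and 0 lower, or 0.0220% of genes tested. At an unadjusted p under 0.05 there were 1632 higher (8.97%) and 915 lower (5.03%). With array medians made equal the split turned to 818 higher and 1869 lower, so the excess of higher genes depends on the scaling. Genes with a mean below 5 accounted for much of it: 65.4% of those 7830 genes were higher, against 47.2% of the 10363 brighter ones. In 2981 genes (16.4%) the 3 ON F1 pools lay outside the range of the 3 control pools, 1848 of them higher (10.2%) and 1133 lower (6.23%).

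Rimklb, which makes the dipeptide N-acetylaspartylglutamate, stood at 4.89, 4.94 and 4.75 in control pools and at 5.45, 5.46 and 5.41 in ON F1 pools. The groups did not overlap, and the gene rose by 0.58 ± 0.07 (limma adjusted p = 0.0102). Of its 4 probe sets 3 lay higher, over a range of -0.07 to 0.58. Slc7a4, a member of the cationic amino acid transporter family, stood at 6.33, 6.29 and 6.28 against 6.95, 6.70 and 6.77. It rose by 0.51 ± 0.08 (limma adjusted p = 0.0472), with 3 of 3 probe sets higher, by 0.11 to 0.51.

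The other two called genes belong to signalling by small GTPases. Arhgef16, a guanine nucleotide exchange factor, stood at 5.81, 5.61 and 5.77 in control pools and at 6.71, 6.60 and 6.52 in ON F1 pools. It rose by 0.88 ± 0.13 (limma adjusted p = 0.0472), or 1.84-fold, the steepest of the 4. Rasl12, a Ras-like small GTPase, stood at 4.70, 4.60 and 4.52 against 5.03, 5.33 and 5.22, and rose by 0.58 ± 0.08 (limma adjusted p = 0.0398). All 4 calls were lost when the 6 arrays were fitted by themselves (limma adjusted p = 0.179 to 0.293), with the actin ratio as a covariate (0.124 to 0.159) and without control pool 3 (0.0904 to 0.173). The differences themselves stayed between 0.50 and 0.90 in those fits. Single pools also ended calls: that of Rasl12 without control pool 2 or ON F1 pool 8 (limma adjusted p = 0.0895 and 0.0948), that of Slc7a4 without control pool 1, control pool 2 or ON F1 pool 7 (0.0984, 0.109 and 0.0796), and that of Arhgef16 without any pool but pool 9 (0.0796 to 0.161). For Rimklb and Slc7a4 the mean over probe sets gave 0.26 and 0.25, less than the value at the brightest probe set by over 1.5 times.

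**Figure D1:**
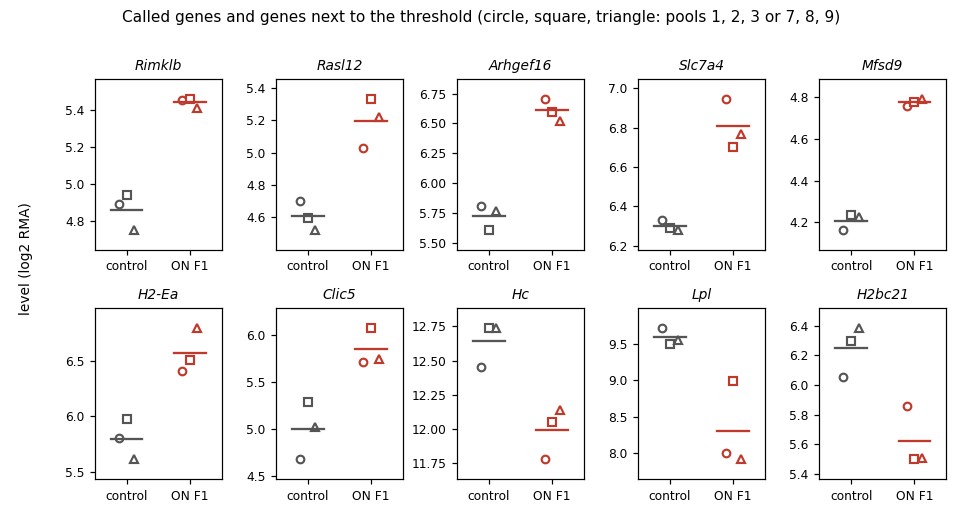
Log2 RMA level of the genes named from the smallest p-values, in control pools (grey) and ON F1 pools (red), 1 symbol per pool and a bar at the mean of 3. Rimklb sits at 4.75 to 4.94 in control pools and at 5.41 to 5.46 in ON F1 pools, and in each panel the groups do not overlap.

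Several genes close to the threshold parted the groups as cleanly. Mfsd9, a major facilitator family transporter, stood at 4.16, 4.23 and 4.22 in control pools and 4.76, 4.78 and 4.79 in ON F1 pools (0.57 ± 0.10, limma adjusted p = 0.0631). Clic5, an intracellular chloride channel protein, stood at 4.68, 5.29 and 5.02 against 5.71, 6.07 and 5.74 (0.85 ± 0.15, limma adjusted p = 0.0766). H2-Ea, the alpha chain of a class II antigen-presenting molecule, stood at 5.81, 5.98 and 5.61 against 6.41, 6.51 and 6.80. Its 3 probe sets lay higher by 0.20 to 1.36. Ntrk2, the receptor for brain-derived neurotrophic factor, stood at 6.32, 7.06 and 6.14 against 7.29, 8.03 and 8.06, and 8 of 8 probe sets lay higher. On the lower side the smallest adjusted p was 0.0631, for the complement gene Hc. It was followed by Lpl, H2bc21, Gria3 and Pitpnm2, each at 0.0766 in limma. Gria3, a glutamate receptor subunit, differed by -0.51 ± 0.10, and Pitpnm2, a phosphatidylinositol transfer protein, by -0.60 ± 0.12. Nemf, which acts in the clearance of stalled ribosomes, and the repressor Cic differed by -0.31 ± 0.07 and -0.38 ± 0.08. In both genes every pool of IUGR F1 and of the second generation also lay below every control pool, so neither shift is particular to ON F1. At 1 of its probe sets Nemf differed by 0.04.

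Among the genes with large differences and no overlap were 3 cytochrome P450 genes, none of which passed the adjusted threshold. Cyp2b9, a cytochrome P450 that is usually higher in female than in male liver, stood at 5.16, 6.30 and 5.27 in control pools and at 8.16, 8.34 and 6.66 in ON F1 pools. The difference of 2.14 ± 0.49 (4.42-fold, limma adjusted p = 0.109) was least in pool 9. Cyp2b13, also female-biased, stood at 3.98, 4.30 and 4.42 against 4.92, 6.06 and 4.57 (0.95 ± 0.26, limma adjusted p = 0.166). Cyp2b10, the usual readout of the drug-sensing nuclear receptor CAR, stood at 6.00, 6.74 and 5.33 against 8.46, 7.46 and 7.46. It differed by 1.77 ± 0.45 (limma adjusted p = 0.143), with 3 of 3 probe sets higher by 1.77 to 2.10. In each of these genes the lowest ON F1 pool lay above the highest control pool.

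These P450 genes are near copies, so their probe sets may share hybridisation and the values of a single gene are uncertain. The promoters of Cyp2b9 and Cyp2b13 are shown because these genes stood higher together and are nearly the same over this window. Each runs over the 250 bases before the RefSeq start on the plus strand of GRCm38.p6, at chr7:26173159-26173408 for Cyp2b9, chr7:26061245-26061494 for Cyp2b13 and chr7:25897408-25897657 for Cyp2b10. Capitals mark the bases at which Cyp2b9 and Cyp2b13 differ.
Cyp2b9: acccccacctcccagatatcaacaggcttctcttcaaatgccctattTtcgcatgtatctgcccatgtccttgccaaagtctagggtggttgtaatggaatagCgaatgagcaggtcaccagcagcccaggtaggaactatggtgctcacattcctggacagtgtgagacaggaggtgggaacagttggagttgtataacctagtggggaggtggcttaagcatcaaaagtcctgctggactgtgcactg
Cyp2b13: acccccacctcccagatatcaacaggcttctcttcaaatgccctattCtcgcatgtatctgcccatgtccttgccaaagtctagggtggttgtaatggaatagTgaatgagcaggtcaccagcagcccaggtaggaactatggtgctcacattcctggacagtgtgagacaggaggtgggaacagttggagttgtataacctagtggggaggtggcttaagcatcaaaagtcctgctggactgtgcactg
Cyp2b10: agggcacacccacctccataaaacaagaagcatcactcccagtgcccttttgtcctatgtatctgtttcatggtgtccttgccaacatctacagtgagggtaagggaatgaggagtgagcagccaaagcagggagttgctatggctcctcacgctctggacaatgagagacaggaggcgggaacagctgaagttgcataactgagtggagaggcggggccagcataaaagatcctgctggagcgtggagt
Cyp2b9 and Cyp2b13 matched at 248 of 250 positions (99.2%), with 2 different. Set against Cyp2b9 base by base without gaps, Cyp2b10 matched at 26.4% of positions, and at 126 of them after a shift of 1 base. Pool 8 held the highest Cyp2b13 level by over 1 log2 unit, while Cyp2b9 was almost as high in pool 7 as in pool 8. Cyp2b13 was dim, with a mean of 4.57 over all arrays, and what the window contributes was not tested.

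Moxd1, a copper-dependent monooxygenase relative that is usually higher in male liver, showed the largest difference of any gene whose groups did not overlap. It stood at 9.88, 10.55 and 9.36 in control pools and at 4.30, 6.36 and 8.29 in ON F1 pools. The difference of -3.61 ± 0.75 is 12.2-fold, yet its adjusted p in limma was 0.0994, and the 3 ON F1 pools covered 4 log2 units. Without pool 9, the ON F1 pool nearest the controls, it was -4.60 (limma adjusted p = 0.0184). That choice of pool had to enlarge the difference, so the p is no support for it. Of 14 measured male-biased genes 10 were lower and 4 higher, with a median of -0.130, and 2 lay below the control range, beside 6.23% of all genes. Susd4, a complement regulator, was one of them (8.58, 8.72 and 8.58 against 7.93, 7.55 and 8.56). Of 17 female-biased genes 12 were higher and 5 lower, with a median of 0.205 beside 0.019 over all genes, and 6 lay above the control range, beside 10.2% of all genes. Of the 17 genes 10 had means below 5, where 65.4% of all genes were higher. The 12 include Fmo1, a flavin-containing monooxygenase, at 10.27, 10.28 and 9.98 against 10.66, 10.61 and 10.38 (limma adjusted p = 0.163). Sult1e1, the estrogen sulfotransferase, went the other way and stood at 6.27, 4.81 and 4.00 against 3.37, 4.34 and 3.91. The male-biased median by pool was -0.319, -0.213 and -0.011 in pools 7, 8 and 9.

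The list of CAR and PXR targets and other xenobiotic P450s was evenly split: 10 of its 21 measured members were higher, 11 lower, and the median was -0.002. Cyp3a13 stood at 9.47, 9.91 and 10.10 in control pools and 9.10, 8.48 and 8.96 in ON F1 pools, a difference of -0.98 ± 0.32 in the direction opposite to Cyp2b10. Other genes with large positive differences have varied roles. The water channel Aqp4 stood at 4.52, 5.73 and 4.30 against 6.95, 5.89 and 6.62 (1.64 ± 0.35, limma adjusted p = 0.0994). The transcription factor Rfx4, the phosphate carrier Slc34a2 and Nckap5 differed by 1.19, 1.10 and 1.00, but the second probe set of Rfx4 by -0.14. The glycoprotein Dmbt1, at 3.18, 2.98 and 3.06 in control pools, stood at 3.19, 3.75 and 8.68 in ON F1 pools, so its mean difference of 2.13 came from pool 9.

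**Figure D2:**
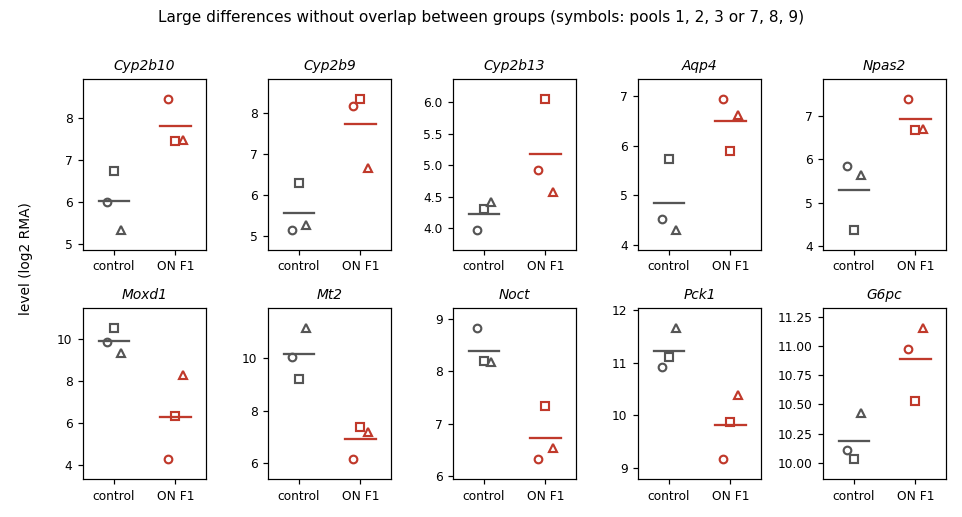
Log2 RMA level of 10 genes with large differences and no overlap between groups, in control pools (grey) and ON F1 pools (red), with a bar at the mean of 3 pools and a separate vertical scale per gene that does not start at 0. Moxd1 spreads from 4.30 to 8.29 over the ON F1 pools, while G6pc spans only 10.53 to 11.16.

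Genes of glucose output went in opposite directions. Pck1, the enzyme that commits oxaloacetate to gluconeogenesis, stood at 10.92, 11.11 and 11.67 in control pools and at 9.17, 9.88 and 10.39 in ON F1 pools. The difference was -1.42 ± 0.38 (limma adjusted p = 0.163). Its dimmest probe set differed by 0.08, against -1.42 and -1.47 at the brighter ones. G6pc, which releases free glucose in the last step of the same pathway, stood at 10.11, 10.03 and 10.43 against 10.98, 10.53 and 11.16 (0.70 ± 0.16, limma adjusted p = 0.111). Neither gene overlapped between groups. IUGR F1 pools also lay above the control range for G6pc, at 10.48 to 10.91. Of 13 measured genes of glucose output and glycolysis 7 were higher and 6 lower, with a median of 0.058.

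Insulin and growth factor genes were split evenly, with 12 of 23 higher and a median of 0.018. Igfbp2, a secreted binder of insulin-like growth factors, stood at 11.09, 11.27 and 11.21 in control pools and at 10.87, 10.40 and 10.53 in ON F1 pools (-0.59 ± 0.20, limma adjusted p = 0.217). The kinase Akt1 differed by -0.40 ± 0.11 without overlap (limma adjusted p = 0.167), but its second probe set differed by 0.14. Igf1 stood level, with a difference of 0.02 ± 0.12. Igfbp1, a fasting-inducible binder, spread widely over ON F1 pools, at 9.05, 6.53 and 8.38.

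Lpl led the genes of fat handling. Lipoprotein lipase frees fatty acids from circulating triglyceride and is low in adult hepatocytes compared with muscle and fat. It stood at 9.72, 9.50 and 9.55 in control pools and at 8.01, 9.00 and 7.92 in ON F1 pools. Pool 8 lay nearest the controls, and the groups did not overlap. The difference was -1.29 ± 0.24 (2.44-fold lower, limma adjusted p = 0.0766), and both probe sets lay lower (-1.40 and -1.29). Without pool 8 it was -1.63 (limma adjusted p = 0.00543). As pool 8 was nearest the controls, its loss had to enlarge the difference, and that p is no support for it. Whether fewer cells of a type or less RNA per cell underlies such a value cannot be told apart in whole tissue.

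Several other fat uptake and droplet genes stood higher. Cd36, a fatty acid translocase, stood at 5.87, 6.15 and 5.69 in control pools and at 7.28, 6.78 and 6.00 in ON F1 pools (0.78 ± 0.23, limma adjusted p = 0.176). Pool 9 lay inside the control range, and without it the difference was 1.13 (limma adjusted p = 0.0285). Leaving out the pool nearest the controls had to enlarge the difference, so that p is no support for it. Mogat1, which builds diacylglycerol, stood at 4.79, 4.29 and 3.79 against 5.83, 4.79 and 4.84. Plin2, a coat protein of lipid droplets, stood at 12.11, 11.96 and 12.02 against 12.35, 12.33 and 12.32. Pnpla2, the lipase that opens stored triglyceride, stood at 8.23, 7.94 and 7.95 against 7.62, 7.85 and 7.73, but its second probe set differed by 0.06. Vnn1, a pantetheinase under PPARA control, stood at 4.67, 4.56 and 4.70 against 5.69, 6.05 and 4.49, so that pools 7 and 8 were high and pool 9 was below all controls. Among 19 genes of fatty acid oxidation and PPARA targets 14 were higher, with a median of 0.077. By pool the list median was 0.144, -0.028 and -0.006 in pools 7, 8 and 9, and -0.095 to 0.073 in control pools. Cpt1a, the gate for fatty acids into mitochondria, differed by -0.40 ± 0.15, with pool 9 at 9.98 inside the control range and pools 7 and 8 at 9.38 and 9.50 below it. Of 22 uptake and droplet genes 12 were higher and 10 lower (median 0.036), and 6 lay outside the control range, 4 above and 2 below, beside 10.2% and 6.23% of all genes.

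Cholesterol synthesis was the list with the most uniform sign. All 18 measured members were lower, with a median of -0.275, and 2 lay below the control range, beside 6.23% of all genes. Msmo1, a sterol methyl oxidase, stood at 11.17, 11.23 and 11.66 in control pools and 10.41, 10.58 and 11.17 in ON F1 pools (-0.63 ± 0.25, limma adjusted p = 0.295). Nsdhl and Sc5d, which act on later sterols of the pathway, stood at 10.32, 10.15 and 10.55 against 10.04, 9.76 and 10.13, and at 11.38, 11.35 and 11.45 against 11.32, 10.92 and 11.09. No member was called. The list median by pool was -0.204, -0.579 and -0.144 in ON F1 pools, and the control pools ran from -0.185 to 0.196. It was also below 0 in every IUGR F1 pool, at -0.046, -0.211 and -0.383, and in every second-generation pool, at -0.588 to -0.021.

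Fatty acid synthesis showed no shared direction: 11 of 19 members were higher and 8 lower, with a median of 0.007. The pools were far apart, at 0.856 in pool 7 against -0.263 in pool 8 and -0.281 in pool 9. Pool 7 held the highest of the 6 levels for 17 of the 19 members. Elovl6, a fatty acid elongase, stood at 11.86, 9.83 and 9.93 in ON F1 pools against 10.54, 10.49 and 9.80. Pnpla3, a lipase relative that follows lipogenesis, stood at 9.57, 6.63 and 6.10 against 7.12, 7.25 and 6.34. Elovl6 and Pnpla3 were picked after their values were seen. Bile acid and lipoprotein genes were 16 of 23 lower (median -0.055). Among them the bile salt pump Abcb11 stood at 11.38, 11.20 and 11.18 against 10.75, 10.84 and 11.05 (-0.37 ± 0.13, limma adjusted p = 0.251).

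Complement components form a plasma cascade that marks and lyses microbes. Of 21 measured components 18 were lower and 3 higher, with a median of -0.094, and 4 lay below the control range, beside 6.23% of all genes. No member passed the adjusted threshold. Hc, which encodes complement C5, stood at 12.45, 12.74 and 12.74 in control pools and at 11.78, 12.05 and 12.14 in ON F1 pools (-0.65 ± 0.11, limma adjusted p = 0.0631). C8b, a chain of the pore-forming complex, stood at 11.14, 11.15 and 11.31 against 10.24, 10.54 and 10.97 (-0.62 ± 0.16, limma adjusted p = 0.144). C6 differed by -0.46 ± 0.18, with pool 9 inside the control range.

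Lifr, the receptor of leukaemia inhibitory factor, a cytokine of the interleukin-6 family, held within 10.46 and 10.53 in control pools and stood at 9.27, 9.53 and 10.10 in ON F1 pools (-0.86 ± 0.18, limma adjusted p = 0.0972). Without pool 9 it was -1.10 (limma adjusted p = 0.0184), but that pool was nearest the controls, so its loss had to enlarge the difference. Il6ra, the interleukin-6 receptor, stood at 8.06, 8.32 and 8.55 against 6.94, 7.37 and 7.93 (-0.90 ± 0.30, limma adjusted p = 0.221). The other probe sets of both genes were lower by less, down to -0.03 for Lifr and -0.14 for Il6ra. At the probe sets used, pool 7 was lowest and pool 9 nearest the controls for both.

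Acute phase genes encode plasma proteins that the liver makes more of in inflammation, and 24 of 25 were lower, with a median of -0.376 and 4 below the control range, beside 6.23% of all genes. The size came mainly from pool 7, whose list median was -0.959 against -0.130 and -0.110 in pools 8 and 9. Pool 7 held the lowest of the 6 levels for 23 of 25 members. Saa1 and Saa2, serum amyloid A proteins, stood at 9.14 and 7.33 in pool 7. In the other ON F1 pools they were 13.44 and 13.64, and 12.14 and 12.46. Lcn2, an iron-sequestering protein of inflamed liver, was as low as 4.75 in pool 7 while pools 8 and 9 held 11.91 and 11.05, beside 11.80, 11.15 and 12.39 in control pools. These 3 genes were picked after their values were seen, and Saa1 and Saa2 are near copies that may share hybridisation. Orm2, an orosomucoid, parted the groups, at 8.89, 9.80 and 10.83 against 5.60, 8.63 and 8.74 (-2.18 ± 0.98, limma adjusted p = 0.339). Without pool 7 the list median was -0.138.

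Metallothioneins, small metal-binding proteins induced by glucocorticoids, zinc and inflammation, were also lowest in pool 7. Mt2 stood at 10.04, 9.22 and 11.16 in control pools and at 6.15, 7.39 and 7.18 in ON F1 pools. Its difference of -3.24 ± 1.44 is 9.42-fold, but the gene also varied from 6.44 to 11.49 over IUGR F1 pools, and the limma adjusted p was 0.339. Mt1, its neighbour and near relative, stood at 12.44, 10.70 and 11.29 against 6.37, 10.37 and 9.90. Glucocorticoid response genes and metallothioneins together were 15 of 19 lower, with a median of -0.239 and 6 below the control range, beside 6.23% of all genes. Cxcl1, a chemokine that draws neutrophils, stood at 9.98, 9.09 and 10.45 against 7.34, 8.20 and 8.77 (-1.74 ± 0.55, limma adjusted p = 0.197).

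Pool 8 stood apart in interferon response genes. Its list median lay 0.986 above the control mean, against -0.024 in pool 7 and -0.030 in pool 9, and 27 of 32 members were highest in it. Ifit3, an antiviral protein picked after its values were seen, stood at 6.18, 8.18 and 5.75 in ON F1 pools and 5.68, 5.89 and 5.47 in control pools. Rsad2, an antiviral enzyme known as viperin, stood at 7.32, 8.46 and 7.33 against 6.71, 7.09 and 7.06. In Rsad2, Oasl1, Ifit2 and Trim30a all ON F1 pools lay above all control pools, 4 of 32 members beside 10.2% of all genes. Oasl1 stood at 7.22, 8.04 and 7.03 against 6.79, 6.80 and 6.66 (0.68 ± 0.21, limma adjusted p = 0.194). Of the 32 members 24 were higher with a median of 0.257, which was -0.047 without pool 8. Antigen-presenting MHC genes were 13 of 21 higher with a median of 0.107, which was -0.020 without control pool 1.

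**Figure D3:**
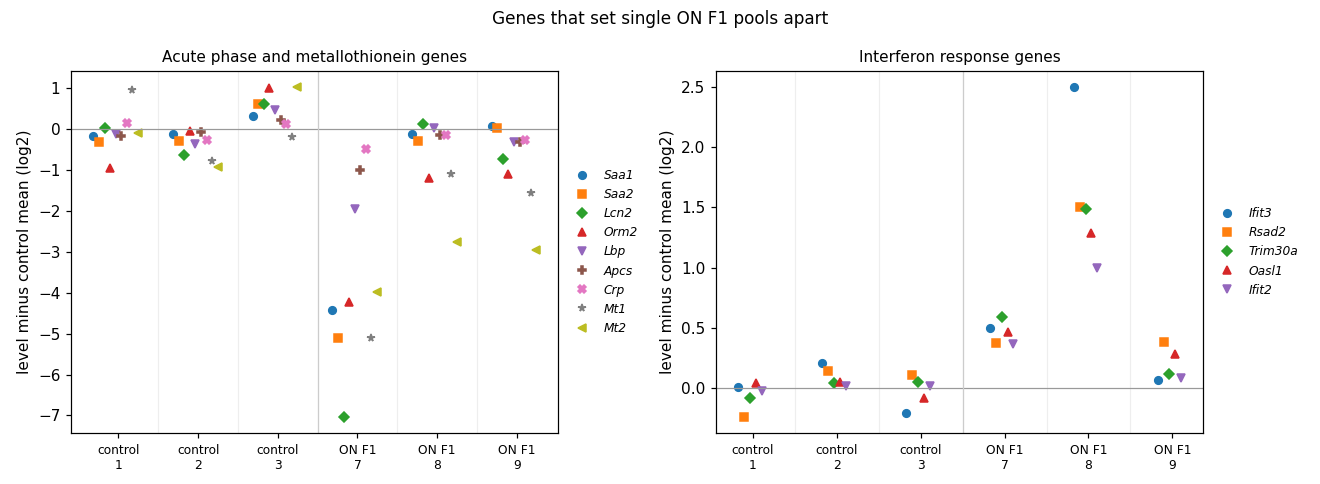
Level of single genes minus the control mean (log2) in each of the 6 pools, for acute phase and metallothionein genes on the left and interferon response genes on the right, 1 symbol per gene. Lcn2, Saa1 and Saa2 stand lowest in pool 7, where their levels were 4.75, 9.14 and 7.33, and Ifit3 stands highest in pool 8.

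Clock genes varied widely within the control group. Dbp, a transcription factor with a steep daily rhythm in liver, stood at 5.88, 10.07 and 6.89 in control pools and at 5.39, 5.34 and 6.23 in ON F1 pools. Control pool 2 was thus far above the other 5, and the sampling times are not given in the sources used here. Npas2, a partner of Arntl in the activating arm of the clock, stood at 5.84, 4.38 and 5.64 against 7.39, 6.66 and 6.69 (1.62 ± 0.45, limma adjusted p = 0.166). Arntl itself stood at 7.67, 6.47 and 7.38 against 7.86, 7.64 and 7.75. Its groups overlapped, because pool 8 lay just below control pool 1. Arntl and Dbp were picked after their values were seen.

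Per1, a repressor of the clock, stood at 5.22, 6.39 and 5.80 in control pools and at 4.88, 4.87 and 4.96 in ON F1 pools, without overlap (-0.90 ± 0.33, limma adjusted p = 0.253). Per3 and Tef, picked after their values were seen, differed by -0.96 and -0.70. Per3 overlapped between groups, and the second probe set of Tef differed by 0.08. Noct, a rhythmic phosphatase of NADP cofactors, stood at 8.84, 8.19 and 8.17 against 6.33, 7.34 and 6.54 (-1.66 ± 0.41, limma adjusted p = 0.143). Of 21 clock genes 14 were lower and 7 higher, with a median of -0.253, which was -0.027 without control pool 2 and -0.034 with the Dbp level as a covariate.

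The Per1 promoter is shown because Per1 parted the groups and is a known target of clock activators, which bind E-boxes. It covers the 250 bases before a RefSeq start on the plus strand of GRCm38.p6 at chr11:69098699-69098948. Capitals mark the single match to CACGTG, a motif that reads the same on both strands.
Per1: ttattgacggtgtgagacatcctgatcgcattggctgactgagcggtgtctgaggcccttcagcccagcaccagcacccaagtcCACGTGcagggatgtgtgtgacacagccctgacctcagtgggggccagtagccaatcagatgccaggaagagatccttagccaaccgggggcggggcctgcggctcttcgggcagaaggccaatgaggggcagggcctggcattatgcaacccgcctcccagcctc
The match begins 166 bases before the start. The motif occurs in 6.02% of 32851 promoter windows of this length.

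**Figure D4:**
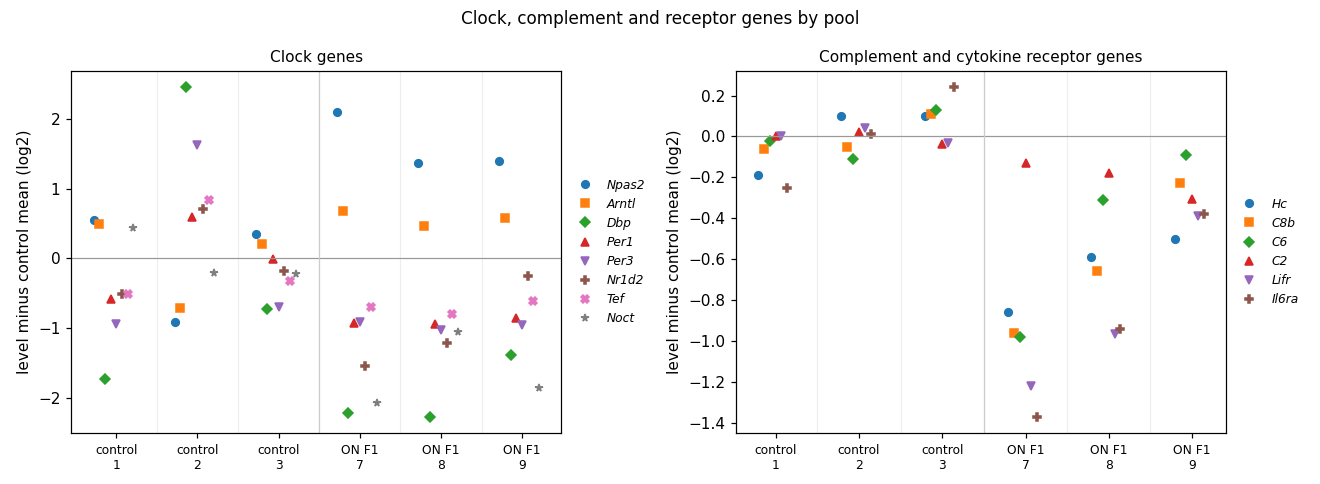
Level of single genes minus the control mean (log2) in each of the 6 pools, for clock genes on the left and complement and cytokine receptor genes on the right, 1 symbol per gene. Control pool 2 has the highest Dbp (10.07) and the lowest Npas2 (4.38) of the 6 pools, and Lifr and Il6ra are lowest in pool 7.

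Genes of protein folding and turnover lay lower by small amounts. Of 24 endoplasmic reticulum stress genes 19 were lower (median -0.152), and 6 lay below the control range, beside 6.23% of all genes. Hsp90b1, a chaperone of secreted proteins, stood at 11.84, 11.89 and 12.08 in control pools and at 11.51, 11.63 and 11.63 in ON F1 pools (-0.35 ± 0.11, limma adjusted p = 0.206). Herpud1, a component of the degradation route for misfolded proteins, stood at 11.05, 11.22 and 11.13 against 10.32, 10.66 and 10.86. Pool 7 was the lowest of the 6 pools for 19 of the 24 genes, as it was for the acute phase list. Among 17 cytosolic heat shock genes 12 were lower (median -0.219), 6 below the control range and 1 above it, beside 6.23% and 10.2% of all genes. Hspb8, a small chaperone, stood at 10.41, 10.50 and 10.70 against 10.01, 10.04 and 10.12.

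Proteasome subunits were 23 of 25 lower, with a median of -0.132 and 8 below the control range, beside 6.23% of all genes. Their pool medians were close, at -0.086, -0.119 and -0.120. They were as low in sons of ON males, at -0.149, -0.153 and -0.081. In IUGR F1 pools they were 0.020, -0.051 and -0.096, and in sons of IUGR males -0.069, 0.000 and -0.086. Psmd12 and Psmd1, subunits of the regulatory particle, differed by -0.17 and -0.19. Cytosolic ribosomal proteins were 23 of 25 lower with a median of -0.088, from 0.011 in pool 7 to -0.196 in pool 8. Respiratory chain subunits were 20 of 35 higher with a median of 0.013. In limma 0 members had an unadjusted p under 0.05, beside 8.97% of all genes higher and 5.03% lower. The proteasome median was -0.073 with the actin ratio as a covariate and -0.189 with array medians made equal.

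Amino acid genes held both directions and 2 of the 4 called genes, Rimklb and Slc7a4, beside 0.0220% called over all genes. The lists were chosen with earlier results of these data known, so these calls say nothing about the list as a whole. Of 31 members 12 were higher and 19 lower, with a median of -0.034. Asns, which makes asparagine and is induced when amino acids are short, stood at 6.44, 6.28 and 6.76 in control pools and at 5.18, 5.77 and 5.38 in ON F1 pools (-1.05 ± 0.34, limma adjusted p = 0.204). The neutral amino acid carrier Slc38a2, a target of the same response, stood at 9.26, 9.30 and 9.37 against 8.83, 8.46 and 9.01. Arg1, the last enzyme of the urea cycle, stood at 12.67, 12.82 and 12.64 against 12.49, 12.27 and 12.50. All 3 parted the groups. Of the 31 members 3 lay above the control range and 7 below it, beside 10.2% and 6.23% of all genes.

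Chromatin and imprinted genes are of interest to the study's question of inheritance. H2bc21, an H2B histone, stood at 6.05, 6.30 and 6.38 in control pools and at 5.86, 5.50 and 5.51 in ON F1 pools (-0.62 ± 0.12, limma adjusted p = 0.0766), and both probe sets lay lower. The DNA methyltransferase Dnmt3b stood at 6.52, 6.08 and 6.43 against 6.84, 6.76 and 7.04 (0.54 ± 0.21, limma adjusted p = 0.285). Dnmt1 and Dnmt3a differed by -0.04 and -0.30. The histone methyltransferase Ehmt2 stood at 8.51, 8.44 and 8.51 against 8.31, 8.31 and 8.21. It also lay below the control range in IUGR F1 pools, at 8.27 to 8.34, and in every second-generation pool. Of 25 genes of DNA methylation and histone modification 14 were lower and 11 higher, with a median of -0.034. Of 20 imprinted genes 13 were higher and 7 lower, and none was called. At an unadjusted p under 0.05 in limma there were 3 in each direction, beside 8.97% of all genes higher and 5.03% lower. The smallest p was that of Impact, a regulator of translation, which differed by -0.38 ± 0.08 (limma adjusted p = 0.106) but by 0.20 at its second probe set. Igf2r, which clears insulin-like growth factor 2, and Gnas, a G protein subunit, differed by -0.46 and -0.23. Kcnq1, a potassium channel, stood at 5.21, 5.29 and 5.31 against 5.47, 5.90 and 5.74. In IUGR F1 pools Impact and Kcnq1 stood at 6.90 to 6.99 and 5.44 to 5.91, on the same side of the control range as in ON F1.

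Markers of other cells were compared as lists. Kupffer cell markers were 12 of 18 lower with a median of -0.100, and no member parted the groups, beside 16.4% of all genes. The summed linear level of this list was 4289 to 6208 in control and 4913 to 5981 in ON F1 pools. The median turned to 0.059 with the actin ratio as a covariate and to 0.034 without control pool 3. Bile duct markers were 10 of 13 higher with a median of 0.220, although 9 of the 13 had means below 5. Of the 4 brighter members 2 stood higher and 2 did not. Anxa4, an annexin and the brightest, differed by -0.02, and Ddr1, a collagen receptor, by -0.08. Pkhd1 and Sox9, a ciliary protein and a duct transcription factor, stood at 6.08, 5.83 and 6.08 against 7.41, 6.41 and 6.45, and at 6.97, 6.19 and 6.57 against 7.04, 6.98 and 7.22. Sox9 in ON F1 pool 8 and control pool 1 was almost equal. The summed bile duct level was 1032 to 1063 in control and 1124 to 1163 in ON F1 pools. T and NK cell markers were 12 of 13 higher with a median of 0.180, and 10 of them were dim. The list median was also above the control mean in every IUGR F1 pool, at 0.078, 0.168 and 0.157. The same held in every second-generation pool, at 0.005 to 0.097. Their summed level was 309.5 to 322.1 in control pools and 320.7, 427 and 342.4 in ON F1 pools. The member Ccl5 stood at 6.33 in pool 8, against 5.01 and 4.90 in pools 7 and 9. The part of these cells in the results above was not tested.

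The B cell and plasma cell list held both directions, with 5 higher and 6 lower of 11 (median -0.051). Jchain, which joins antibody units, stood at 6.26, 7.41 and 6.19 in control pools and at 5.33, 5.67 and 5.89 in ON F1 pools, without overlap, while Igha, an antibody heavy chain, differed by 0.03. Jchain was also low in IUGR F1 pools, with a mean of 5.53 and a range of 5.13 to 6.21. The summed linear level of the list was 1290 to 2320 in control and 691.1 to 1475 in ON F1 pools. A linear sum is weighted to the brightest members, so it largely follows the antibody gene Ighm, whose mean was the highest. Ighm stood at 10.58, 10.83 and 9.91 in control pools and at 10.20, 8.46 and 9.42 in ON F1 pools. Its 11 probe sets ran from -1.80 to 0.38, with 5 of them higher. Prox1, a hepatocyte and lymphatic transcription factor, stood at 7.93, 7.62 and 7.99 against 6.75, 6.10 and 7.42 (-1.09 ± 0.30, limma adjusted p = 0.166). Hepatocyte transcription factors, Prox1 included, were split, 7 higher and 11 lower, with a median of -0.050. Muscle markers were dim throughout, with all 14 means below 5.

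**Figure D5:**
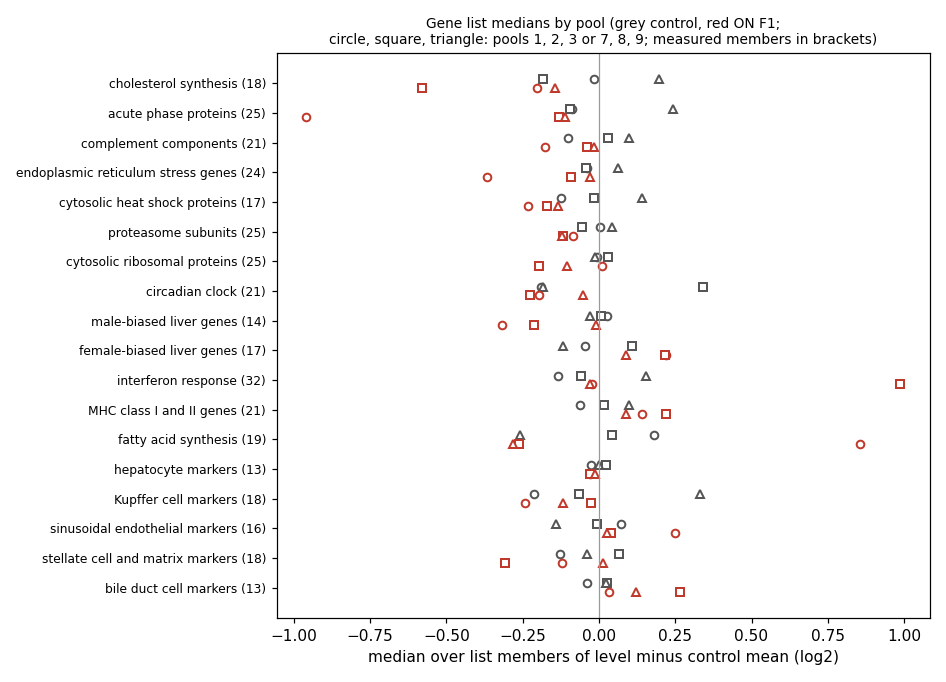
Median over the members of each gene list of the level minus the control mean (log2), per pool, with control pools in grey and ON F1 pools in red. Pool 7 is lowest for acute phase genes (-0.959) and highest for fatty acid synthesis (0.856), and pool 8 is highest for interferon response genes (0.986).

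The comparison with IUGR F1 sets the first-generation groups of both challenges side by side. Its differences hold no control level, but the control arrays enter its error through the model of all 15 arrays, and it shares the ON F1 arrays with the comparison above. In limma 2 of 18193 genes differed at an adjusted p under 0.05, or 0.0110%, and 1155 (6.35%) at an unadjusted p under 0.05. H2bc21 stood at 6.45 ± 0.12 (SD, n = 3) in IUGR F1 pools and was lower in ON F1 pools, with a difference of -0.83 ± 0.12 (limma adjusted p = 0.044). Adi1, an enzyme of methionine salvage picked after its values were seen, stood at 9.17, 9.10 and 9.16 in ON F1 pools, 8.18 to 8.36 in IUGR F1 pools and 8.25 to 8.75 in control pools. It was higher in ON F1 than in IUGR F1 by 0.86 ± 0.11 (limma adjusted p = 0.0374). Its second brightest probe set differed from control by -0.07 and from IUGR F1 by 0.17. The call of H2bc21 was lost without ON F1 pool 8 or 9 (limma adjusted p = 0.12 and 0.0845) and without control pool 2 or 3 (0.0902 and 0.0563). That of Adi1 was lost without any 1 of the ON F1 pools (0.0604 to 0.103) and without control pool 3 (0.0563). With the actin ratio as a covariate both had a limma adjusted p of 0.19.

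For the 4 called genes the test against IUGR F1 did not pass. Slc7a4 stood at 6.81 in both first-generation groups, and Rimklb at 5.26 ± 0.05 (SD, n = 3) in IUGR F1, 0.18 below ON F1 (limma adjusted p = 0.713). Arhgef16 stood at 6.01 and Rasl12 at 4.95 in IUGR F1, and the tests against ON F1 gave limma adjusted p = 0.328 and 0.701. Mfsd9 held control-like levels in IUGR F1, at 4.19 to 4.25, and differed from ON F1 by 0.57 (limma adjusted p = 0.115). Lpl stood at 9.50 to 10.14 in IUGR F1, above every ON F1 pool, with a difference of -1.43 ± 0.24 (limma adjusted p = 0.115). Moxd1 and Cyp2b9 stood at 9.47 ± 1.31 and 5.38 ± 1.02 in IUGR F1 (SD, n = 3), and neither difference passed (limma adjusted p = 0.487 and 0.288).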

How the data were processed

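RNA of 15 liver pools was measured on Affymetrix GeneChip mouse expression arrays, after freezing in liquid nitrogen, Trizol extraction and biotin labelling of 2 ug, per the labels' protocols. The deposited values are log2 levels per probe set, made by the authors with RMA per the submitters' processing notes. No RMA version is named there. RMA compresses dim probe sets, so their differences are understated, and normalisation removes shifts shared by most genes. Depth does not apply to arrays, whose number limits the precision. Differences had a standard error of 0.1036 at the median.

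Of 45101 probe sets 64 controls were left out, 34945 of the rest named 1 gene, 932 several and 9160 none. Through Entrez identifiers 34741 matched the RefSeq table of GRCm38.p6. Each of 18193 genes was read at its probe set with the highest mean. All 15 arrays entered 1 limma 3.58.1 model of 5 group means (R 4.3.3), with two-sided moderated tests and a Benjamini-Hochberg adjusted threshold of 0.05 over all genes. The fit was also run on simulated arrays with planted differences. It recovered 62.5% of those of 0.5 and 95.8% of those of 1.0, with 9.5 false calls per draw on average. The simulated noise was independent between genes, with 1 spread per gene over all groups. It therefore cannot show how the fit handles shifts of a whole pool. Groups came from the titles, whose numbers 1 to 15 pair no pools.

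Named genes were those called, the 10 with the smallest p and the 10 with the largest non-overlapping difference per direction, up to 4 members with the smallest p in each of 44 gene lists, cell type markers, and a metabolic panel. The lists held 962 entries, of which 840 were matched by current symbol, and lists were only counted, not tested. The members and lists were chosen with earlier results of these data known. Promoter sequences are RefSeq's. The alternatives were other probe set choices, a filter on dim genes, equal array medians, only 6 arrays, a trended robust prior, the actin ratio or Dbp as a covariate, and each pool left out.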

Additional observations from a re-analysis of the deposited data

Results flagged for a closer look

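For H2bc21 and Adi1 the test of the difference between the first-generation groups passed in limma, over all genes. H2bc21, an H2B histone, differed by -0.83 (ON F1 minus IUGR F1, limma adjusted p = 0.044), with levels lower in 3 of 3 ON F1 pools. Adi1, a methionine salvage enzyme, differed by 0.86 (limma adjusted p = 0.0374), with levels higher in 3 of 3 ON F1 pools. Across the second generation Adi1 stood at 9.10 ± 0.18 in sons of IUGR males and 8.34 ± 0.03 in sons of ON males (SD, n = 3).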

How the results depend on the processing

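The counts of called genes were small and moved with most settings. Against 4 higher and 0 lower genes, the counts were 0 and 0 with only the 6 arrays, with the second brightest probe set and with the actin ratio as a covariate. They were 1 and 0 with the mean over probe sets, with genes of a mean of at least 5 and with Dbp as a covariate. Each probe set by itself gave 2 and 0, equal array medians 2 and 1, and the trended robust prior 8 and 1. Leaving out 1 pool at a time gave 0 to 13 higher and 0 to 8 lower genes, with 13 and 8 without pool 9 and 0 and 0 without control pool 3. Against IUGR F1, the count of 2 was 0 with the second brightest probe set and with the actin ratio as a covariate, 1 with Dbp as a covariate and 0 to 3 with 1 pool left out. Of 1716 values of named genes under these settings, 1696 kept their direction. Many of these genes were named for a small p or a large difference in the same arrays. A kept direction was thus likely beforehand and is little support. The second brightest probe set turned Mm2pr to -0.16, Rfx4 to -0.14, Pnpla2 to 0.059, Akt1 to 0.14, Nr1d2 to 0.046, Tef to 0.076, Adi1 to -0.070, Impact to 0.20, Dnmt1 to 0.19 and Dnmt3a to 0.0058. The mean over probe sets turned Dnmt1 to 0.028, and equal array medians turned Igf1 to -0.037. The cause was not tested. With 1 pool left out, Pnpla3 ran from -0.54 (without pool 7) to 1.20, Elovl6 from -0.39 (without pool 7) to 0.62, Igf1 from -0.058 (without pool 7) to 0.12 and Dnmt1 from -0.11 to 0.025 (without pool 9). Of 17 lists with a median of at least 0.1 in size, 3 changed sign under some setting, namely interferon, MHC and Kupffer cell genes. The muscle list has no gene with a mean of at least 5 and gave no value there. No paired analysis was possible because no pool number is shared between groups.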

Other observations

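Genes of DNA replication and the cell cycle held both directions, with 14 of 25 higher and a median of 0.023. Those that parted the groups were 4, all higher, beside 10.2% of all genes, and 13 of the 25 had means below 5, where 65.4% of all genes were higher. Mcm2, a subunit of the replicative helicase, stood at 5.42, 5.56 and 5.49 in control pools and at 5.81, 5.98 and 5.73 in ON F1 pools (0.35 ± 0.10, limma adjusted p = 0.169). Foxm1, a transcription factor of dividing cells, stood at 4.85, 4.72 and 4.49 against 5.14, 5.00 and 4.92. Klf2, a transcription factor induced by blood flow, stood at 5.87, 5.54 and 5.54 against 6.14, 6.02 and 5.96 (0.39 ± 0.10, limma adjusted p = 0.143).

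Zonation genes were near balance. Of 18 pericentral genes 11 were lower (median -0.092) and of 18 periportal genes 8 were lower (median 0.012). The glutamate carrier Slc1a2, a pericentral marker, was lowest in pool 7 at 5.73, while pools 8 and 9 held 7.20 and 7.68, beside 7.59, 7.33 and 8.09 in control pools. The pericentral receptor Lgr5 was also lowest in pool 7, at 4.81, against 5.73 and 5.94. Yet 7 of the 18 pericentral genes were higher. Among them Aldh1a1 stood at 13.15, 13.18 and 13.08 in control pools and at 13.43, 13.30 and 13.34 in ON F1 pools, highest in pool 7. The stellate cell proteoglycan Dcn stood at 10.31, 10.56 and 10.43 in control pools and at 10.01, 9.79 and 10.36 in ON F1 pools (-0.38 ± 0.15, limma adjusted p = 0.280). Pool 9 lay inside its control range. Of 18 stellate cell and matrix markers 12 were lower and 6 higher, with a median of -0.155. Of these 1 lay above the control range and 0 below it, beside 10.2% and 6.23% of all genes. The member above was Des, at 0.22 ± 0.10, but its other probe set differed by -0.16.

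Malat1, a nuclear RNA, and Nipbl, which loads cohesin, were among 21 genes called without pool 9, at -2.05 and -1.14 (limma adjusted p = 0.0433 and 0.0418). Both were picked after their values were seen, and neither was called with all pools kept. A gene in which 1 pool lay over 1 log2 unit from both other pools of its group was found 65, 74 and 27 times for ON F1 pools 7, 8 and 9, and 19, 32 and 20 times for control pools 1, 2 and 3.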
